A study of Mus musculus with 6 samples.

Results

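The genes described here encode the proteasome of mouse B16F10 melanoma cells, its assembly chaperones, its activators and its inhibitor. They were chosen by symbol alone, as every Psma gene from Psma1 to Psma8, Psmb1 to Psmb7 and Psmb11, Psmc1 to Psmc6, all numbered Psmd genes, Psme1 to Psme4, Psmf1 and Psmg1 to Psmg4. The rule found 45 of the 27179 genes listed. B16F10 is an established pigmented melanoma line, and the cells were wild-type only in that no engineered change is named for them. The cells had been kept for 6 h with 0.01% olive oil (OLO, 3 libraries) or with 0.01% ozonated olive oil (OZO, 3 libraries), and their RNA was sequenced. The values used were the deposited mean over all 6 libraries, in log2 CPM, that is, read counts scaled to the size of the library. They hold no value of a single library and so no spread, and no difference between OZO and OLO was computed. The account below is therefore of how much of each proteasome transcript these cells held, not of what OZO did to it.

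The proteasome degrades proteins that carry a ubiquitin chain. Its barrel, the 20S core, is built of an outer pair of alpha rings that gate the entrance and an inner pair of beta rings that cut the substrate, and a 19S particle on its end receives, unfolds and deubiquitinates the substrate. Cells under oxidative or proteotoxic stress are known to raise the transcription of proteasome genes through the transcription factors Nfe2l1 and Nfe2l2.

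Of the 45 genes, 43 were present at 1 CPM or more and 37 at 32 CPM or more. The lowest value in the column was that of a gene without reads, and it placed the libraries at a geometric mean of 19641946 reads, at which 1 CPM is 19.6 reads and 3 reads are 0.153 CPM. Melanocyte genes were abundant, with all 8 markers between 109 and 7052 CPM, while the 4 keratinocyte markers were at or below 0.0367 CPM and Krt5 had no reads. The 3 leukocyte markers ranged from 0.0367 to 1.78 CPM, the 3 fibroblast markers from 1.15 to 3.28 CPM and the 2 endothelial markers from 0.101 to 1.21 CPM. In RNA from a whole culture, a low level in every cell and a high level in a few cells cannot be told apart.

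The proteasome genes lay high among all transcripts. Their median was 125 CPM (6.97 on the log2 scale), against a median of 2.73 CPM (1.45) over the 21154 genes with reads, and 90.9% of those genes were lower. Of the members, 26 of 45 (57.8%) fell in the top 10% of genes with reads, among them 16 of the 17 members that belong to the 19S particle and 8 of the 14 that form the constitutive 20S core. These 31 members are taken as the 26S subunits, and the 19S subunits Adrm1 and Sem1 fall outside the symbol rule. Together the members held 0.675% of the summed CPM of all genes.

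**Figure D1:**
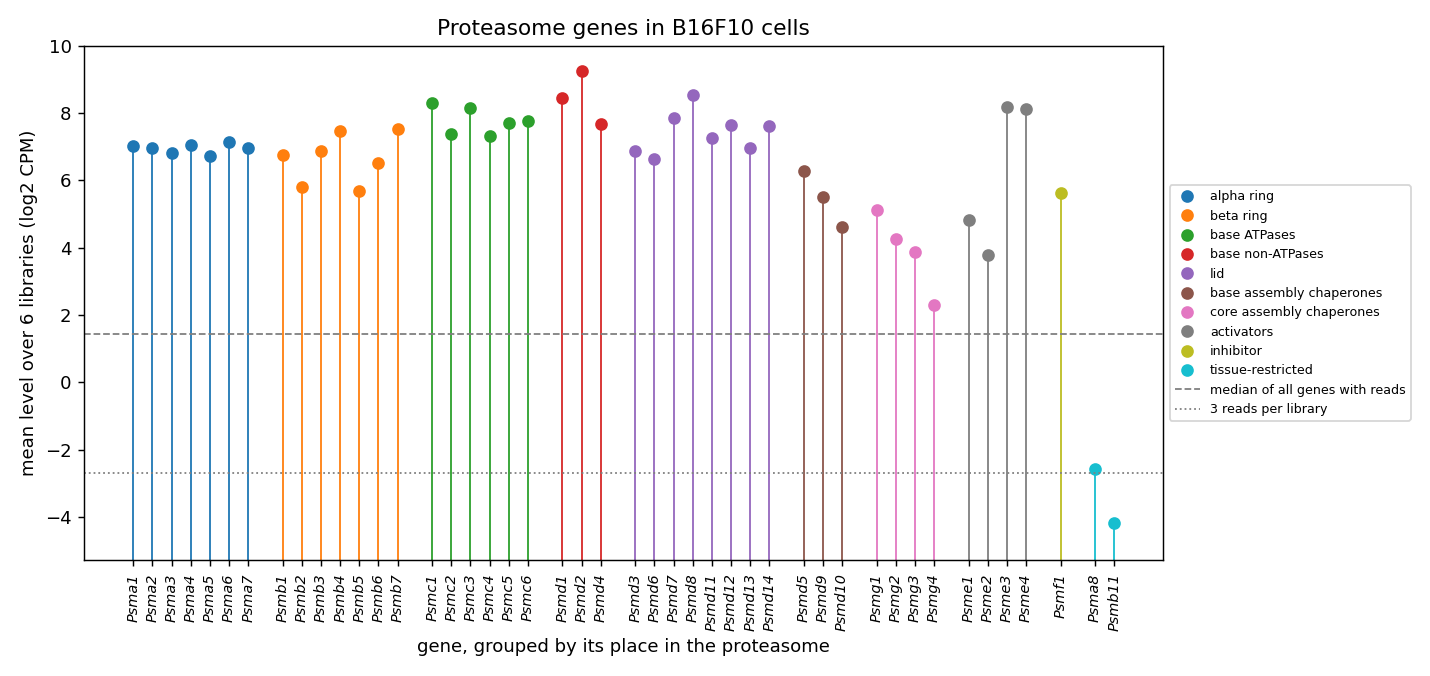
Mean level of each of the 45 proteasome genes over 6 libraries (vertical axis, log2 CPM), grouped and coloured by place in the proteasome, each point being 1 gene. The dashed line is the median of all genes with reads (1.45) and the dotted line is 3 reads per library (-2.71); 43 genes stand above the dashed line, and Psma8 and Psmb11 lie below it.

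**Figure D2:**
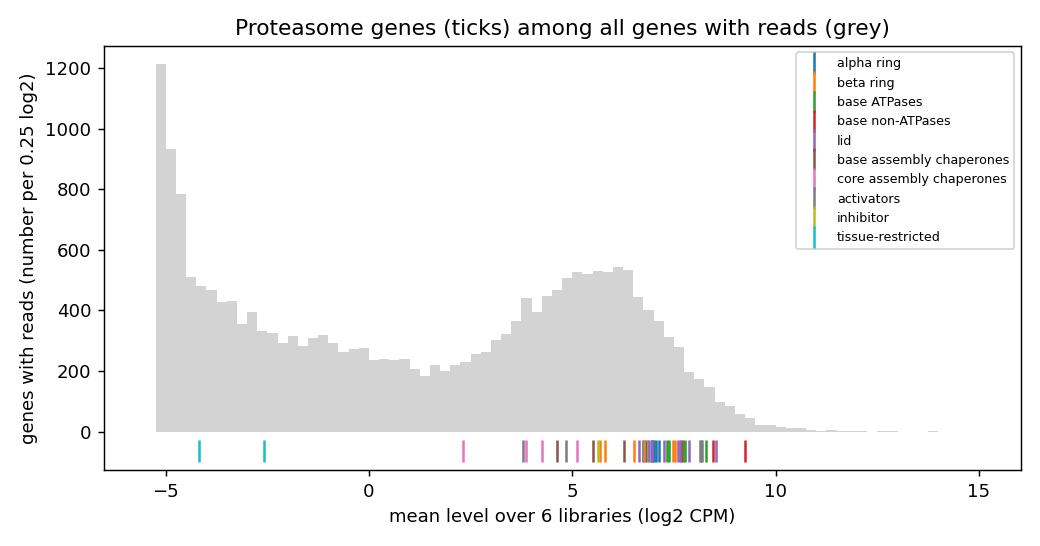
Number of genes with reads (vertical axis) at each mean level over 6 libraries (horizontal axis, log2 CPM, bins of 0.25), with the 45 proteasome genes as coloured ticks under it. Most ticks sit on the right shoulder of the distribution, where 26 of the 45 are in the top 10%.

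The alpha ring was even in CPM and per kb of coding sequence. Its subunits, which form the outer rings and the gate, were at 130 CPM (Psma1), 124 CPM (Psma2), 113 CPM (Psma3), 134 CPM (Psma4), 106 CPM (Psma5), 141 CPM (Psma6) and 125 CPM (Psma7). The highest and the lowest of these 7 differed 1.33-fold in CPM. A longer transcript yields more fragments, so genes were compared with each other per kilobase, as mean log2 CPM minus log2 of the gene length in kb. The coding lengths of the alpha genes were close to each other, 702 to 789 bases, and per kb of coding length the 7 subunits again lay within 1.30-fold, with an SD over subunits of 0.14 on the log2 scale. The union of their annotated exons, which counts every alternative exon and end, varied from 1234 to 3894 bases, and per kb of that length the same genes spread over 3.94-fold. Psma6 was then highest (6.84 log2 CPM per kb of exon union) and Psma3 lowest (4.86). Per kb of the longest transcript the 7 genes spread over 3.41-fold.

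The remaining alpha gene was scarce. Psma8, which replaces Psma7 in the germ line, was at 0.166 CPM, or 3.26 reads with the offset of 0.5 included, close to the level of 3 reads.

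The beta ring was less even than the alpha ring in CPM and per kb of coding length (SD over subunits 0.67). It was more even per kb of exon union (SD 0.57 against 0.70) and of the longest transcript (SD 0.51 against 0.69). Psmb1, Psmb2, Psmb3 and Psmb4, which carry no active site, were at 109, 56.1, 117 and 177 CPM. The catalytic subunits were at 51.2 CPM for Psmb5 (chymotrypsin-like activity, the main target of proteasome inhibitor drugs), 91.4 CPM for Psmb6 (caspase-like) and 185 CPM for Psmb7 (trypsin-like). Per kb of coding length Psmb5 was the lowest of the 31 subunits under the symbol rule (6.01 log2 CPM per kb), below Psmb6 (6.999) and Psmb7 (7.80). Per kb of exon union the 3 catalytic genes lay within 1.17-fold of each other, with an exon union of 3421 bases for Psmb7 and 899 for Psmb5. The order of the catalytic subunits thus depends on which length stands for the transcripts that these cells make, which the values do not show. Psmb5, at chr14:54614119-54618022 on the minus strand, also has a processed pseudogene that matches 796 bases of its transcript at 98.9% identity, and whether reads were shared with it was not tested.

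Catalytic subunits of the interferon-induced kind were scarce. Psmb8 and Psmb9, which replace Psmb5 and Psmb6 in immune cells and after interferon, were at 0.0702 and 0.0664 CPM, both under the level of 3 reads. Psmb10, which replaces Psmb7, was measurable at 5.62 CPM, and per kb Psmb7 stood above it 16.4-fold (exon union), 15.2-fold (longest transcript) or 32.5-fold (coding length). The leukocyte markers Ptprc, Cd3e and Lyz2 were at 0.0702, 0.0367 and 1.78 CPM. Psmb11, the beta subunit of the thymic cortex, was at 0.0553 CPM, or 1.09 reads with the offset included. It lies 3411 bases from Psmb5, at chr14:54621433-54629556 on the plus strand.

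The base of the 19S particle was highly expressed. Its 6 ATPases, which form the ring that unfolds the substrate, were at 313 CPM (Psmc1), 168 CPM (Psmc2), 285 CPM (Psmc3), 161 CPM (Psmc4), 211 CPM (Psmc5) and 217 CPM (Psmc6). Their median was 6.50 log2 CPM per kb of exon union, the highest of any part, and 7.49 per kb of coding length. Psmc1 (chr12:100110154-100123405, plus strand) was among the 3 highest of the 31 subunits under each of the 3 lengths. It has 2 pseudogene copies, the longer matching 1306 bases at 95.6% identity. Psmc2, the lowest ATPase per kb, was 4.86-fold below Psmc1 per kb of exon union and 2.02-fold below it per kb of coding length.

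Psmd2, a scaffold of the base that also binds ubiquitin, had the highest CPM of all members, 611 CPM, and 99.3% of genes with reads were lower. Psmd1, the other large scaffold of the base, was at 354 CPM. Psmd2 exceeded it 3.11-fold per kb of exon union, 1.79-fold per kb of the longest transcript and 1.81-fold per kb of coding length. Psmd2 (chr16:20651652-20663414, plus strand) ranked between 1 and 4 among the 31 subunits under the 3 lengths. A transcribed pseudogene matches 2726 bases of it at 96.4% identity, and its part in the value was not tested. Psmd4, a ubiquitin receptor, was at 204 CPM, and Adrm1, a further receptor and no member of the list, was at 81.1 CPM.

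The lid was uneven. Psmd14, the enzyme that removes the ubiquitin chain, was at 195 CPM, and Psmd7, its inactive partner in the lid, was at 233 CPM. The structural subunits were at 118 CPM (Psmd3), 100.5 CPM (Psmd6), 374 CPM (Psmd8), 153 CPM (Psmd11), 201 CPM (Psmd12) and 125 CPM (Psmd13). Psmd8 was highest and Psmd3 lowest of the 8 per kb under each length, and Psmd8 exceeded Psmd3 5.16-fold (exon union), 4.64-fold (longest transcript) or 4.77-fold (coding length). Psmd8 (chr7:29174188-29180701, minus strand) ranked between 1 and 4 of the 31 subunits, and Psmd3 (chr11:98682554-98695979, plus strand) ranked 30 under all 3 lengths. Proteins of the lid are present in equal numbers in the particle, and these are transcript levels only. Sem1, the smallest lid protein and outside the symbol rule, was at 82.4 CPM.

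Over the 31 subunits under the symbol rule, the level per kb of exon union had a median of 5.82 log2 CPM per kb and an SD of 0.81, and it ran from 4.57 (Psmb1) to 7.34 (Psmc1). Per kb of coding length the SD was 0.54. Outside the rule, Adrm1 (4.19) and Sem1 (4.54) lay below Psmb1 per kb of exon union, and Sem1 (8.62) lay above Psmd8 (8.46) per kb of coding length. The median of the 20S core was 0.54 log2 units below that of the 19S particle per kb of exon union, and 0.06 below it per kb of coding length, so the size of this gap depended on the length used. Across the 31 subunits, log2 CPM had a Pearson r of 0.40 and a Spearman rho of 0.23 with the log2 exon union, 0.50 and 0.45 with the longest transcript, and 0.71 and 0.66 with the coding length, which is a description across genes measured in the same libraries. Only 14 of the 31 subunits moved by 5 ranks or fewer between the 3 lengths, and the largest move was 17 ranks. Since the spread between libraries is not given, neighbours in any of these orders could not be tested against each other.

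**Figure D3:**
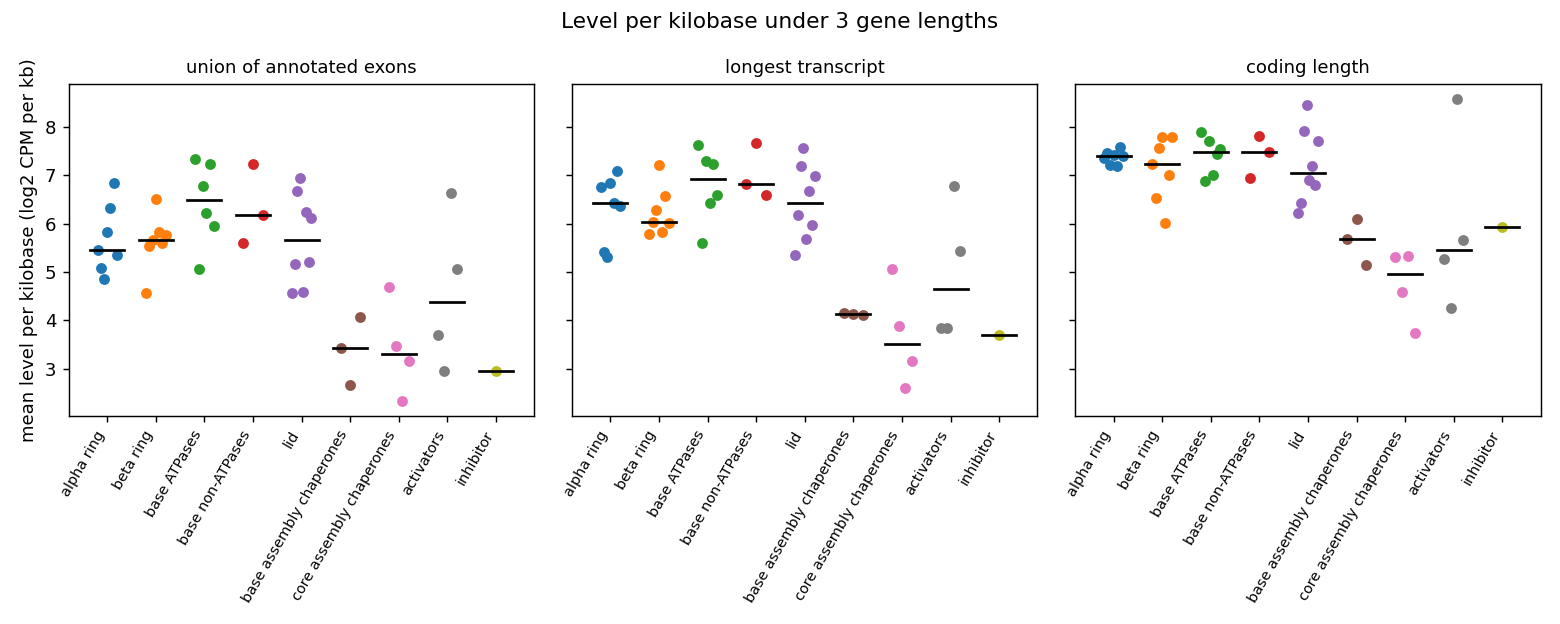
Mean level per kilobase of each proteasome gene (vertical axis, log2 CPM per kb) by part of the proteasome, in 3 panels for the union of annotated exons, the longest transcript and the coding length; each point is 1 gene and each bar the median of its part, and Psma8 and Psmb11 are left out. In each panel the medians of both groups of assembly chaperones, of the activators and of the inhibitor lie below those of the 5 subunit groups, and the 7 alpha genes come together in the coding-length panel.

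By their medians per kb, the Psmd and Psmg assembly chaperones lay below each group of 26S subunits under all 3 lengths. The base chaperones Psmd5, Psmd9 and Psmd10, which assist the assembly of the base, were at 77.7, 45.8 and 24.6 CPM. Their median was 3.43 log2 CPM per kb of exon union and 5.68 per kb of coding length, against 6.50 and 7.49 for the ATPases. The exon union of Psmd9 is 7248 bases but its longest transcript is 2634, the largest such ratio among the members (2.75), and its level ranged from 2.66 to 6.10 log2 CPM per kb with the length used.

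The chaperones of the core work as pairs on the alpha ring. Psmg1 and its partner Psmg2 were at 34.6 and 19.1 CPM, and Psmg3 and its partner Psmg4 were at 14.6 and 4.94 CPM. Psmg1 exceeded Psmg2 per kb 2.34-fold (exon union), 2.26-fold (longest transcript) or 1.65-fold (coding length). Psmg4 was the lowest of the members apart from Psma8 and Psmb11 in CPM, though per kb of exon union Psmg3 was lower (2.34 against 3.15 log2 CPM per kb). Pomp, which completes the maturation of the core and is outside the symbol rule, was at 114 CPM. Per kb of exon union it lay below the median of the alpha ring (4.45 against 5.46 log2 CPM per kb), and per kb of coding length above it (8.08 against 7.39).

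The activators differed widely in level. Psme1 and Psme2, which form the interferon-inducible cap of the core, were at 28.6 and 13.7 CPM. Psme3, the nuclear relative of that pair, was at 293 CPM, and Psme4, a large nuclear activator, was at 281 CPM. Psme3 exceeded Psme1 per kb 7.67-fold (exon union), 7.63-fold (longest transcript) or 10.0-fold (coding length), and exceeded Psme2 12.8-fold, 7.70-fold or 20.1-fold. Psme4 has an exon union of 8382 bases, and Psme3 exceeded it per kb 2.96-fold (exon union), 2.54-fold (longest transcript) or 7.55-fold (coding length). Per kb of coding length Psme4 (5.67 log2 CPM per kb) lay nearer to Psme1 (5.26) than to Psme3 (8.59). Psme1 (chr14:55578123-55581529, plus strand) and Psme2 (chr14:55587441-55591113, minus strand) are 5912 bases apart. The transcript of Psme2 matches that of the gene Psme2b over 794 bases at 99.4% identity. Psme2b is not listed among the 27179 genes, and how reads of that pair were assigned was not tested. Psmf1, which binds the core as an inhibitor, was at 49.6 CPM.

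Of the 12 chaperones, activators and the inhibitor, 8 lay below the lowest of the 31 constitutive subunits under all 3 lengths. The tissue-restricted subunits Psma8 and Psmb11 did so too. The exceptions among the 12 were Psmd9 and Psmg1, which lay below under 2 lengths each, Psme4 under 1 and Psme3 under none. Psme3 stood above the median subunit under all 3 lengths.

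Partners of the proteasome outside the symbol rule were all well expressed where listed. Usp14 and Uchl5, deubiquitinating enzymes that dock on the 19S particle, were at 207 and 105 CPM, and Ecpas, a scaffold that binds the 26S proteasome, was at 239 CPM. Together with Adrm1, Sem1 and Pomp, these 6 had a median of 4.50 log2 CPM per kb of exon union and 6.93 per kb of coding length. Among the genes that control proteasome transcription, Nfe2l1 was at 249 CPM and Nfe2l2 at 149.5 CPM. Vcp, the ATPase that extracts Nfe2l1 from the endoplasmic reticulum, was at 587 CPM. Ngly1, which removes its sugar chains, was at 42.4 CPM, and Ddi2, the protease that cleaves it, was at 18.6 CPM.

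Beside other complexes of many subunits, the 26S subunits lay below the CCT chaperonin and above the COP9 signalosome. The 8 genes of the CCT chaperonin, which folds actin and tubulin, had a median of 6.95 log2 CPM per kb of exon union with an SD over genes of 0.69, above the medians of the 20S core (5.64) and the 19S particle (6.18). The 13 genes of eIF3, a translation initiation factor, had a median of 5.61 with an SD of 1.05. The 9 genes of the COP9 signalosome, whose layout resembles the lid, had a median of 5.05 with an SD of 1.12. Per kb of coding length the medians were 8.09 for CCT (7 genes with a coding length), 7.13 for eIF3 and 6.53 for the COP9 signalosome, against 7.38 for the 20S core and 7.44 for the 19S particle. These are descriptions, with no test of the difference.

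**Figure D4:**
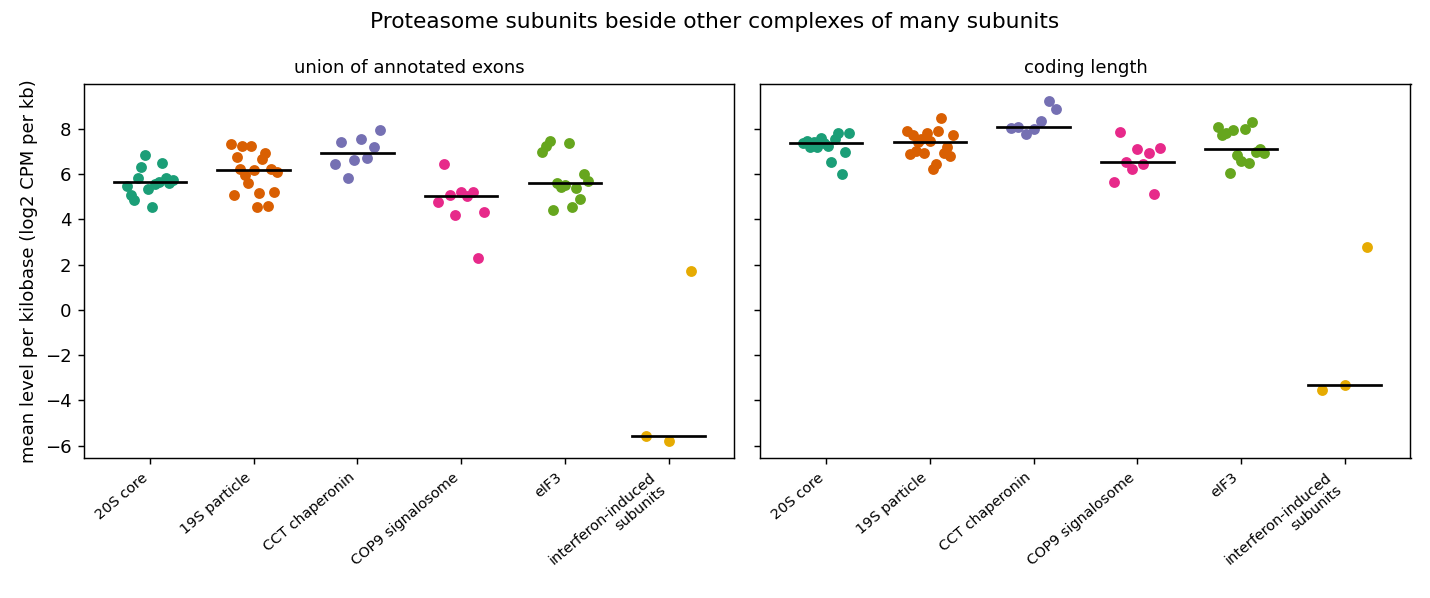
Mean level per kilobase (vertical axis, log2 CPM per kb) of the genes of the 20S core, the 19S particle, the CCT chaperonin, the COP9 signalosome, eIF3 and the interferon-induced subunits, per kb of exon union (left) and of coding length (right), each point being 1 gene and each bar a median. CCT genes lie highest in both panels by median, and of the interferon-induced subunits Psmb10 alone is above 0.

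The 45 genes are spread over 16 chromosomes, with 8 on chromosome 11, 6 on chromosome 2 and 6 on chromosome 14 (mm10 coordinates, GENCODE). Of the members, 8 (17.8%) start within 1000 bases of a coding gene that runs the other way, against 11.2% of the 11180 coding genes at 1 CPM or more. The partners were Mrpl32 for Psma2 (75 bases between the starts), Ss18l1 for Psma7 (76 bases), Tbp for Psmb1 (137 bases), Dnajc2 for Psmc2 (32 bases), Ftsj3 for Psmc5 (75 bases), Atg4a for Psmd10 (179 bases), Rnf31 for Psme2 (595 bases) and Cep76 for Psmg2 (263 bases). All 8 partners were expressed, from 8.64 CPM (Rnf31) to 179 CPM (Ftsj3).

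Promoters in the RefSeq table (GRCm38.p6) were found for 37 of the 45 genes, each as 250 bases before and 50 bases after the start. The antioxidant response element core, to which Nfe2l2 and Nfe2l1 bind, was searched as TGACNNNGC on both strands. It was present in 6 of the 37 (16.2%), against 13.99% of all 27025 genes and 17.0% of the 9373 genes at 1 CPM or more, so the members did not stand apart by this count. The 6 were Psmb5, Psmb6, Psmc6, Psmd9, Psmd12 and Psme4. The CCAAT box (CCAAT, both strands) was in 13 of the 37 (35.1%), against 41.1% of all genes and 43.6% of the genes at 1 CPM or more. The GC box (GGGCGG, both strands) was in 22 (59.5%), above the 38.2% of all genes and below the 70.2% of genes at 1 CPM or more. The bases before the start of the catalytic genes that hold the element are printed here 5′ to 3′, with the element in capitals, because they encode active-site subunits. Psmb7, the remaining catalytic gene, was not among the 37 searched. The element begins 47 bases before the start of Psmb5 and 9 bases before that of Psmb6. A match of letters is not evidence of binding.
Psmb5 (chr14:54617996-54618245, minus strand): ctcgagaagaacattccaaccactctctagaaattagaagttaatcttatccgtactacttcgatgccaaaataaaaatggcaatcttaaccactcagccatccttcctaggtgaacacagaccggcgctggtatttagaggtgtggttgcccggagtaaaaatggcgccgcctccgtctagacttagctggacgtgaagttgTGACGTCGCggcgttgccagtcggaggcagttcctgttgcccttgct
Psmb6 (chr11:70525107-70525356, plus strand): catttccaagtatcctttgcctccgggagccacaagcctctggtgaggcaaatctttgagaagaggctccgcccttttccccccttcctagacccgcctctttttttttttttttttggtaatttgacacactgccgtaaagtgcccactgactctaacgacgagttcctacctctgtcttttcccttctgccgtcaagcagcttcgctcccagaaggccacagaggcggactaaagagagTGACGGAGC

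Sequence shared with other genes limits some of these values. A stretch of at least 150 bases at 95% identity or more with another annotated gene was found for 13 of the 45 members, and for 8 of them at least 1 such gene was a pseudogene. Among the alpha genes these were Psma3 (4 genes), Psma4 (1 gene) and Psma5 (2 genes), and among the beta genes Psmb3 (3 genes), Psmb5 and Psmb7. Psmb7 shares exon sequence with Nek6 and Psmd13 with Sirt3, its neighbours in the genome. A protein-coding gene overlaps 10 of the members, and a gene on the opposite strand overlaps 15. The library kit marks the strand, but the strand setting of the counting is not given in the sources used here, and the effect of such overlaps was not tested.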

How the data were processed

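RNA-seq libraries of B16F10 cells (3 OLO and 3 OZO, 6 h) were prepared with a directional kit. The submitters' processing notes name HISAT2 2.1.0, StringTie 1.3.4d, featureCounts 2.1.1, limma 3.58.1 and the build mm10. The deposited table lists 27179 genes with their mean log2 CPM over all 6 libraries, which the authors made with limma. This column was used as deposited, as a pooled mean with no SD and no n. The other 5 numeric columns hold the authors' own comparison of OZO with OLO (a log fold change, its t statistic, p-value, adjusted p-value and log odds) and were not used. Tests between groups had been planned for values of single libraries and were not run. The depth of each library is unknown; the geometric mean depth was inferred from the lowest value in the column, taken as limma's offset of 0.5 reads.

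The level per kilobase was the mean log2 CPM minus log2 of the length in kb, from GENCODE M21, to which all 45 members matched by identifier. The main length was the union of annotated exons, and the longest transcript and the coding length were alternatives. Whether the reads had been counted over the same exons was not checked. An exon of GENCODE that was not counted would add length but no reads, so levels per kb could be too low for some genes. Similar genes were found with BLAST 2.17.0. Values were computed with Python 3.11.15, numpy 2.4.6, pandas 2.3.3 and scipy 1.17.1 and plotted with matplotlib 3.10.9, and the level calculation was tested on simulated data. By the rule for named genes, every member is described by role, with fixed lists of partner genes. Of those lists, Paaf1 and the older symbols Shfm1 and AI314180 are not listed in the table, and some other genes of the lists are not reported here. The members and lists were chosen with earlier results of these data known.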

Additional observations from a re-analysis of the deposited data

How the results depend on the processing

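No paired analysis was possible because the only column used is a mean over all 6 libraries; for the same reason the alternatives planned for a test of OZO against OLO (DESeq2, other size factors, no filter, another pseudocount and leaving out each replicate) were not run. The median levels depended on the length used, in log2 CPM per kb. With the longest transcript they were 6.42 (alpha ring), 6.03 (beta ring), 6.92 (ATPases), 6.83 (other base subunits), 6.43 (lid), 4.12 (base chaperones), 3.52 (core chaperones), 4.64 (activators) and 3.70 (inhibitor). With the coding length they were, in the same order, 7.39, 7.24, 7.49, 7.48, 7.06, 5.68, 4.96, 5.46 and 5.93. With no length correction they were 6.97, 6.77, 7.74, 8.47, 7.43, 5.52, 4.06, 6.49 and 5.63 log2 CPM. Means in place of medians gave 5.68 for the alpha ring, 6.34 for the other base subunits, 3.41 for the core chaperones and 4.59 for the activators, per kb of exon union. The 20S core minus the 19S particle kept its sign throughout, at -0.36 (longest transcript), -0.061 (coding length), -0.76 (no correction) and -0.41 (means). The SD over the 31 subunits was 0.69 with the longest transcript and 0.54 with the coding length. The share of genes below the members' median was 92.9% over all genes listed, 83.8% over genes at 1 CPM or more and 95.0% per kb of exon union. Of 67 recomputed values, 57 moved by more than 0.1 log2 units or, for shares, past the 95% Wilson interval, and the 3 motif shares did not. Neither alternative length can exceed the exon union, so a level per kb could only rise or stay the same. Leaving out the length changes the unit. The count of moved values is therefore no measure of robustness. Depth limits Psma8, Psmb11, Psmb8 and Psmb9, which lie near or under 3 reads per library.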

Other observations

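The factors that carry ubiquitinated proteins to the proteasome were unequal in level. Rad23b was at 392 CPM, or 6.09 log2 CPM per kb of exon union. Ubqln1, Ubqln4 and Ubqln2 were at 239, 117 and 26.6 CPM. The ubiquitin-activating enzyme Uba1 was at 617 CPM, and per kb of coding length it stood at 7.60 log2 CPM per kb, beside 7.81 for Psmd2. Of the genes that encode ubiquitin, Ubb was at 404 CPM and Rps27a at 214 CPM.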
